A study of Mus musculus with 12 samples.

Results

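Expression was compared between B-cell receptor (BCR)-negative and BCR-positive mouse lymphoma cells that had been grown together while GSK3 was inhibited. The comparison used the 6 arrays of 12 whose labels name CHIR99021, 3 of BCR-negative and 3 of BCR-positive cells, and covered all 18820 genes that the platform annotation names. The cells were primary in vitro cultures of B lymphomas from l-MYC;B1-8f mice, of the strain C57BL/6J x BALB/c, and 3 independent lymphomas were used, with the identifiers 2564, 2646 and 2676. Every group shared the l-MYC transgene, the B1-8f allele and exposure of the culture to TAT-Cre, a cell-permeable recombinase that removed the BCR in some of the cells. After 4 days of mixed culture with CHIR99021, an inhibitor of GSK3 whose dose the labels do not give, the BCR-positive and BCR-negative cells were separated by flow sorting, so that each lymphoma gave 1 array of each population. The other 6 arrays were the same populations of the same lymphomas from mixed cultures of 4 days without CHIR99021. They served to show where the comparison with CHIR99021 differed, and entered the model of all 12 arrays that estimated the spread of each gene. All 12 arrays came from cultures of MYC-driven tumours, and the sort selected BCR-negative cells that had persisted beside BCR-positive ones.

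The BCR consists of membrane immunoglobulin and the signalling pair CD79A and CD79B. Through the kinase SYK and the adaptor BLNK it feeds the PI3K and AKT pathway, the NF-κB pathway and calcium signalling. AKT phosphorylates FOXO transcription factors, which keeps them out of the nucleus, and it also phosphorylates and inhibits GSK3. GSK3 marks β-catenin and MYC for degradation and restrains anabolic metabolism. In developing B cells FOXO1 drives the recombinase genes, and loss of BCR signalling in mature B cells is known to restore FOXO activity. CHIR99021 inhibits GSK3 in the cells directly, whether or not the receptor is present.

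Values are log2 levels as summarised by the submitters, and each difference is the log2 level in BCR-negative cells minus that in BCR-positive cells, given with its standard error from a linear model that takes account of the lymphoma. A gene was called at an adjusted p under 0.05 over all genes. Standard errors and p-values rest on the spread left in all 12 arrays, of both cultures, after group and lymphoma are accounted for. This is not the spread of the 3 differences with CHIR99021 alone, and the number of lymphomas limits the precision. The lymphoma carried 89.3% of the sum of squares over the 6 arrays and the sorted population 5.37%, so single genes can differ in every lymphoma and still overlap between the groups. Over all genes, the groups did not overlap in 1190 (6.32%), and a lack of overlap named below is a description beside that share. Array medians lay between 4.71 and 4.86. Of 9 B-cell identity genes, 0 had an unadjusted p under 0.05, and their median level was between 9.14 and 10.39 on the 6 arrays. Ms4a1, which encodes CD20, was the exception among them in its level, with log2 levels of 3.19, 3.24 and 3.05 in BCR-positive and 3.04, 3.12 and 3.03 in BCR-negative cells of lymphomas 2564, 2646 and 2676. This is below 3.39, the 10th percentile of all genes. The median levels of the T-cell, NK-cell, macrophage, granulocyte, erythroid, fibroblast and endothelial lists lay between 3.57 and 4.52 on the 6 arrays, and in each list at most 1 member had an unadjusted p under 0.05. The lymphocyte adhesion gene Cd2 and the platelet and endothelial adhesion gene Pecam1 were well measured (differences of 0.46 ± 0.163 and 0.51 ± 0.179), and the lysozyme gene Lyz2 stood at 3.52, 3.69 and 3.67 in BCR-positive and 4.28, 4.04 and 4.01 in BCR-negative cells. The part of other cells in the results was not tested.

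The heavy-chain variable gene of the B1-8f allele differed between the sorted populations in every lymphoma. The cells were sorted by their BCR after its removal, so this difference was set up by the design and serves as a check of the sort. Ighv1-72, the variable segment whose probe set reads the B1-8 heavy chain, had log2 levels of 9.996, 10.63 and 10.22 in the BCR-positive cells of lymphomas 2564, 2646 and 2676 and of 7.26, 8.17 and 6.56 in their BCR-negative cells. The groups did not overlap, and Ighv1-72 fell by 2.95 ± 0.331 (adjusted p = 0.0498, limma, n = 3 lymphomas). In bulk samples, fewer cells with a transcript and less of it per cell cannot be told apart. The signalling partners of membrane immunoglobulin stood level: Cd79a had a difference of 0.11 ± 0.0773 and Cd79b of -0.019 ± 0.0604 (adjusted p = 0.713 and 0.952). Ighm, the µ constant region, was at 4.25, 8.14 and 4.14 in BCR-positive and at 4.24, 5.16 and 4.31 in BCR-negative cells. Its mean difference of -0.94 ± 0.492 (adjusted p = 0.619) was thus made by lymphoma 2646 alone, where it was measured well above the low levels of the other lymphomas. Igkc, the κ constant region, had differences of -0.24, -0.55 and 0.79 in the 3 lymphomas, which do not share a sign. Ighg3, the γ3 constant region, had -0.27, -0.086 and -0.29, without overlap (difference -0.21 ± 0.0585, adjusted p = 0.457, limma). Without CHIR99021 it was called lower (-0.25 ± 0.0585, adjusted p = 0.0464, limma). Of the 10 measured immunoglobulin genes, 6 had a positive and 4 a negative mean difference with CHIR99021.

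Besides Ighv1-72, Mturn and Foxc1 passed the test across all genes, so that 3 of 18820 genes (0.0159%) were called, 2 higher (0.0106%) and 1 lower (0.00531%) in BCR-negative cells. The order of values is that of lymphomas 2564, 2646 and 2676 throughout, BCR-positive before BCR-negative. Mturn encodes maturin, a small protein known from neural progenitor differentiation. Its log2 levels were 4.45, 4.95 and 5.0 in BCR-positive and 5.31, 5.69 and 5.92 in BCR-negative cells, without overlap, and it rose by 0.84 ± 0.0974 (adjusted p = 0.0498, limma, n = 3). Foxc1 encodes a forkhead transcription factor of mesenchymal and eye development. Foxc1 stood at 3.99, 6.06 and 6.93 in BCR-positive and 4.38, 6.54 and 7.32 in BCR-negative cells, and it rose by 0.42 ± 0.0489 (adjusted p = 0.0498, limma, n = 3). Its groups overlapped because the 3 lymphomas stood at different levels, while its 3 differences, 0.39, 0.48 and 0.39, were nearly alike. All 3 calls lay at the threshold, the next genes having an adjusted p of 0.299, and 1628 genes (8.65%) had an unadjusted p under 0.05, 917 higher (4.87%) and 711 lower (3.78%). Leaving out any of the 6 arrays singly left 0 genes called (limma, with 830 to 2311 genes at an unadjusted p under 0.05). Without lymphoma 2646 likewise 0 genes were called (957 at such a p), and without lymphoma 2676 Ighv1-72 was the single call, at -2.60. Without lymphoma 2564 the calls were Cd74 at -1.67, Plek at -1.93, Hdac9 at -1.12 and Selenop at 0.97, and none of the 3 above.

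**Figure D1:**
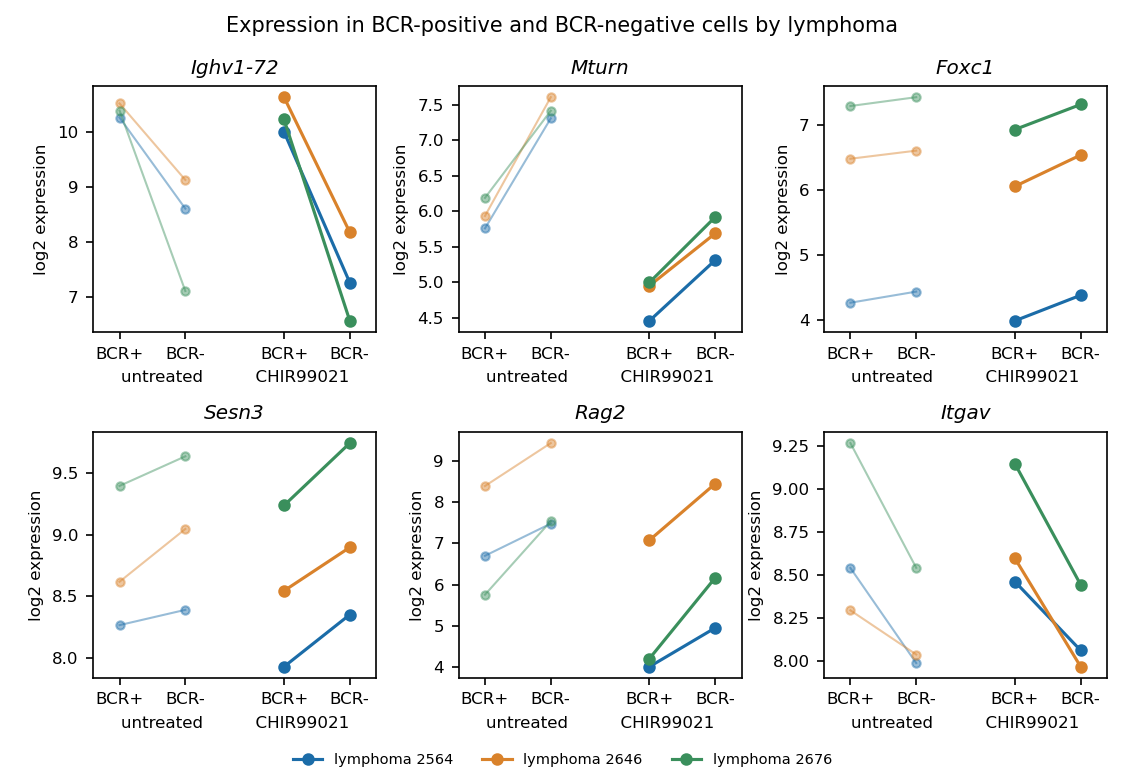
Log2 expression level (vertical axes) of Ighv1-72, Mturn, Foxc1, Sesn3, Rag2 and Itgav in BCR-positive and BCR-negative cells without and with CHIR99021 (horizontal axis); each point is 1 array, each line joins both populations of 1 lymphoma, and pale points are the cultures without CHIR99021. With CHIR99021 the BCR-negative array was the lower of the pair for Ighv1-72 and Itgav and the higher for Mturn, Foxc1, Rag2 and Sesn3 in all 3 lymphomas, while the lymphomas stood at different levels for Foxc1 and Rag2.

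The genes nearest to the threshold on the higher side, chosen among those of 1 sign in the 3 lymphomas, passed no test across all genes. Oxr1, which protects cells against oxidative damage, had log2 levels of 7.61, 7.8 and 7.94 in BCR-positive and 8.08, 8.4 and 8.63 in BCR-negative cells, without overlap (difference 0.59 ± 0.0914, adjusted p = 0.299, limma). Cpm, a membrane-bound carboxypeptidase, stood at 9.0, 9.18 and 9.79 against 9.86, 9.86 and 10.67, again without overlap (difference 0.81 ± 0.131, adjusted p = 0.299, limma). A model of the 6 arrays alone called Cpm beside Ighv1-72 and Mturn, with an adjusted p of 0.0497, and left out Foxc1. Near these by p were the autophagy adaptor Wdfy3 (difference 0.42), the guidance cue Ntn1 (0.54), the FOXO target Sesn3 (0.43), the phosphatidate phosphatase Lpin2 (0.39), the ciliary protein gene Iqcb1 (0.34) and Ypel3 (0.72), a suppressor of cell growth. Pde4b, a cyclic AMP phosphodiesterase, and Nfkbie, the inhibitor IκBε, closed the group at 0.54 and 0.57. The adjusted p of these genes ran from 0.299 to 0.385 (limma).

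On the lower side the integrin αV gene Itgav came first after Ighv1-72. Its log2 levels were 8.46, 8.6 and 9.15 in BCR-positive and 8.06, 7.97 and 8.44 in BCR-negative cells, without overlap, with a difference of -0.58 ± 0.0963 (adjusted p = 0.314, limma). It was followed by the Groucho-type corepressor Tle1 (difference -0.31), AY036118 (-0.51), the cytochrome oxidase assembly factor Coa7 (-0.41), the scavenger decapping enzyme Dcps (-0.30), Fam78a (-0.25) and the NAD kinase Nadk (-0.30). Gdf11, a ligand of the TGF-β family, had log2 levels of 6.86, 6.73 and 6.87 against 6.61, 6.17 and 6.14 (difference -0.52 ± 0.11). The mitochondrial kinase anchor Akap1 stood at a difference of -0.28, the porphyrin transporter Abcb6 at -0.33 and Lysmd2 at -0.25. These genes were likewise chosen for 1 sign in all lymphomas, had an adjusted p between 0.314 and 0.41 (limma), and are values without a call. Of these genes just short of the threshold, AY036118 alone had a mean of the opposite sign in the cultures without CHIR99021 (0.17 against -0.51, adjusted p of the difference 0.928, limma).

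Of the lists of 10 or more measured genes, FOXO targets held the largest share with an unadjusted p under 0.05 on the higher side. Of its 29 measured members, 0 were called, 11 had such a p on the higher side and 1 on the lower side, beside 4.87% and 3.78% of all genes. The median difference was 0.32, with 0.16, 0.35 and 0.34 in lymphomas 2564, 2646 and 2676, beside 0.0048 for all genes. Of the 29 members 25 were positive, as were 52.3% of all genes. Without CHIR99021 the median was larger, at 0.49, with 26 positive and 9 called higher, beside 1.91% of all genes called higher. For the difference between the cultures 0 members were called. Sesn3, a sestrin that restrains mTORC1, had log2 levels of 7.93, 8.55 and 9.24 in BCR-positive and 8.35, 8.9 and 9.75 in BCR-negative cells (difference 0.43 ± 0.0697, adjusted p = 0.299, limma). Pik3ip1, an inhibitor of PI3K, was at 5.58, 5.91 and 6.14 against 6.0, 6.35 and 7.08 (difference 0.60 ± 0.128, adjusted p = 0.401, limma). In both genes the BCR-negative array was the higher in every lymphoma and the groups overlapped. The muscle atrophy ubiquitin ligase gene Fbxo32 lay at 4.87, 4.73 and 4.65 against 5.18, 5.13 and 5.04, where all 3 BCR-negative arrays were above all BCR-positive ones. Cdkn1b, the cell cycle inhibitor p27, had a difference of 0.37 ± 0.111, also without overlap, but of 0.049, 0.44 and 0.62 by lymphoma. The death ligand gene Tnfsf10 had differences of 0.20, 1.37 and 1.36, and thus little in lymphoma 2564. Bcl6, the germinal centre repressor and the 1 member on the lower side, had differences of -0.21, -0.71 and -0.48. The members Ccng2 (cyclin G2, 0.72), Gadd45a (a stress sensor, 0.65), Irs2 (an insulin receptor substrate, 0.58) and Txnip (the thioredoxin-interacting protein, 0.44) also had an unadjusted p under 0.05 and are named here after their values were seen. Klf2, Il7r and Bcl2l11 did not, at 0.39, 0.33 and 0.0043.

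**Figure D2:**
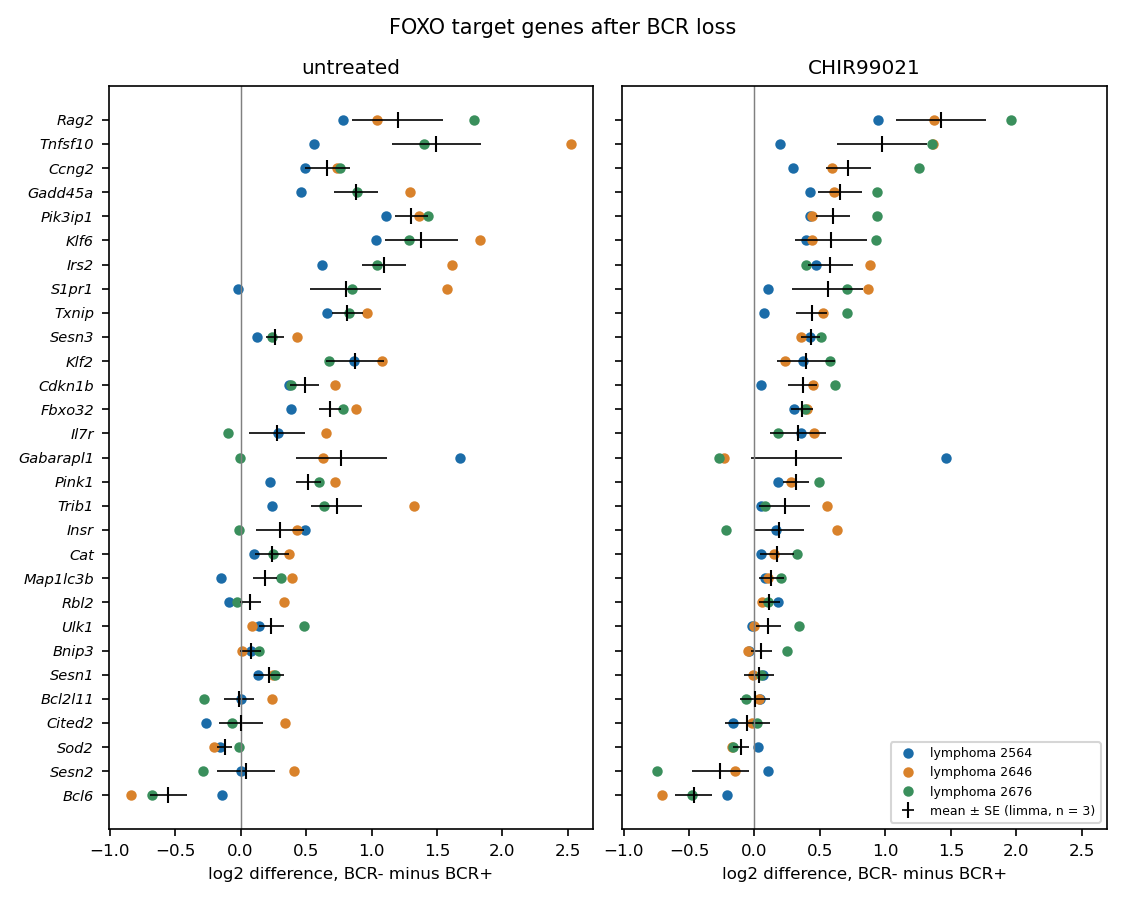
Log2 difference between BCR-negative and BCR-positive cells without (left) and with CHIR99021 (right; horizontal axes) for each of the 29 measured FOXO targets (vertical axis), with 1 point per lymphoma and a cross for the mean with its standard error. With CHIR99021 most means lie to the right of 0, Rag2 farthest at 1.42, and Bcl6 lies farthest to the left at -0.46.

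The forkhead core TGTTTAC, searched on both strands, was present within the RefSeq promoter window (GRCm38.p6, 250 bases before to 50 after the start of transcription) of 3 of 25 FOXO targets that have such a window (12%), beside 4.05% of 27025 genes. Txnip, a direct FOXO target in other cells, is shown because it is the match closest to the start among those upstream of it. The stretch is chr3:96557707-96557956 on the plus strand, with the core in capitals as it reads on the other strand.
Txnip: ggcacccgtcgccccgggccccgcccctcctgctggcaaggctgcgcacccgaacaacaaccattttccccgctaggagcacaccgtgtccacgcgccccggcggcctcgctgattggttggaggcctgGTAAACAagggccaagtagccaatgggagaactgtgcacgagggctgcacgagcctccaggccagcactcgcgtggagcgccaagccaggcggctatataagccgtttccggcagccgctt
A match is a description of these letters only. The other matches were in Bcl2l11 and Sesn1, whose differences were 0.0043 and 0.034, beside 0.44 ± 0.116 for Txnip.

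The pathway above FOXO had smaller values. Of 28 measured genes of the PI3K, AKT and FOXO pathway, 0 were called, 7 had an unadjusted p under 0.05 on the higher and 1 on the lower side, and the median difference was 0.14. The regulatory subunit gene Pik3r1 had log2 levels of 8.59, 9.33 and 9.25 against 8.79, 9.57 and 9.53 in BCR-positive and BCR-negative cells (difference 0.24 ± 0.0629). The catalytic subunit gene Pik3cg had differences of 0.48, 0.33 and 0.68 and the AKT-related kinase gene Sgk1 of 0.22, 0.52 and 0.80. Sgk3, another kinase of that family, stood at 0.0090, -0.34 and -0.38, and so was level in lymphoma 2564. Foxo1 itself was at 8.85, 8.77 and 8.68 against 9.02, 9.26 and 9.01, without overlap (difference 0.33 ± 0.131, adjusted p = 0.541, limma), and Foxo3 had a difference of 0.14 ± 0.0785. Among 16 forkhead genes, Foxc1 was called, 4 members including it had an unadjusted p under 0.05 on the higher side and 1 on the lower side, and the median difference was 0.13. The B-cell forkhead gene Foxp1 had differences of 0.26, 0.23 and 0.37 and the repressor gene Foxn3 of 0.31, 1.07 and 0.79.

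Proximal BCR signalling genes lay on both sides of 0. Of 25, 0 were called, 7 had an unadjusted p under 0.05 on the higher and 2 on the lower side, and the median difference was 0.041 (0.10 with genes of low level left out). Blnk, the adaptor downstream of SYK, was at 9.92, 10.45 and 10.25 in BCR-positive and 10.12, 10.84 and 10.74 in BCR-negative cells, and Syk at 9.08, 9.73 and 9.38 against 9.3, 9.93 and 9.53. In each lymphoma the BCR-negative array was the higher, with differences of 0.36 ± 0.0962 and 0.19 ± 0.0688 (adjusted p = 0.457 and 0.532, limma). Itpr2, a calcium channel of the endoplasmic reticulum, had differences of 0.099, 0.52 and 0.34. Among 17 inhibitory receptor and phosphatase genes, 1 had an unadjusted p under 0.05, the phosphatase SHP-1 gene Ptpn6, at 8.59, 10.44 and 9.0 in BCR-positive and 8.38, 9.96 and 8.25 in BCR-negative cells (difference -0.48 ± 0.148). The kinase gene Csk and the ubiquitin ligase gene Cblb had differences of -0.15 and 0.15.

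Genes of immunoglobulin gene recombination and the pre-B stage had a median difference of 0.26 over 14 measured members, of which 13 were positive, 4 had an unadjusted p under 0.05 on the higher side, 0 on the lower side and 0 were called. Without the BCR-positive array of lymphoma 2564 the median was 0.12, without its BCR-negative array 0.43 and without the BCR-negative array of 2646 0.15. Rag2, a recombinase subunit driven by FOXO1, had log2 levels of 4.01, 7.08 and 4.21 in BCR-positive and 4.95, 8.44 and 6.17 in BCR-negative cells. The BCR-negative array was the higher in every lymphoma, by 0.94, 1.37 and 1.96, and the groups overlapped because lymphoma 2646 was high in both populations (difference 1.42 ± 0.347, adjusted p = 0.442, limma). The pre-B and plasma cell factor Irf4 had differences of 0.58, 0.33 and 0.53 and the surrogate light chain gene Vpreb2 of 0.088, 0.13 and 0.42. In the list of B-cell and plasma cell factors, 23 genes had a median of 0.070. Its member Pou2f2, the octamer factor OCT2, stood at 6.59, 6.83 and 6.86 against 6.47, 6.47 and 6.26, with all BCR-negative arrays below all BCR-positive ones, and the plasma cell regulator Prdm1 had differences of 0.086, 0.71 and 0.76. Homing receptors had a median of 0.053 over 21 genes. The chemokine receptor gene Cxcr4 was at 9.51, 9.56 and 9.47 against 9.69, 9.99 and 10.14, without overlap (difference 0.43 ± 0.116), while the sphingosine and purinergic receptor genes S1pr4 and P2ry10 had differences of 0.34 and 0.19, the latter at levels below 3.40.

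NF-κB targets and early-response genes, which BCR signals induce in normal B cells, had medians on the higher side that were smaller than in the cultures without CHIR99021. With CHIR99021 the median of 20 NF-κB targets was 0.081 and that of 29 early-response genes 0.21, and without it 0.36 and 0.76. The first of these 4 medians was 0.12 without lymphoma 2646 and 0.047 without 2676, and the second was 0.13 without the BCR-positive array of 2646. In each list 0 members were called with CHIR99021 and 9 without it, all higher, beside 1.91% of all genes called higher without it. For the difference between the cultures, 7 members of each list had an unadjusted p under 0.05 toward a lower value with CHIR99021, and 0 were called. Over all genes 359 of 18820 had such a p in that direction. Nfkbia, the inhibitor IκBα, was at 7.88, 8.15 and 7.3 in BCR-positive and 8.28, 8.56 and 8.38 in BCR-negative cells, without overlap, with a difference of 0.63 ± 0.179 (adjusted p = 0.473, limma). Tnfaip3, the NF-κB inhibitor A20, had a difference of 0.53 ± 0.18 with and 2.09 ± 0.18 without CHIR99021 (difference between cultures -1.55 ± 0.255, adjusted p = 0.83, limma). Klf10, Btg2 and Rgs2, a zinc-finger factor, an antiproliferative gene and a regulator of G-protein signalling, had differences of 0.21, 0.72 and 0.44. Btg2 and Rgs2 were apart in lymphomas 2646 and 2676 and level in 2564, with -0.020, 0.79 and 1.38 and -0.028, 0.61 and 0.72. The AP-1 subunit gene Fosb was at 8.2, 8.17 and 7.9 against 9.0, 8.8 and 9.17, without overlap (difference 0.90 ± 0.365).

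The target of the inhibitor and its Wnt pathway had small differences and no call. Gsk3b was at 8.93, 9.06 and 9.42 in BCR-positive and 9.0, 9.16 and 9.61 in BCR-negative cells (difference 0.12 ± 0.0527), and Ctnnb1, encoding β-catenin, had a difference of 0.077 ± 0.0537. Axin2 and Lef1, which β-catenin induces in many tissues, had differences of 0.055 ± 0.104 and 0.13 ± 0.0734, the latter from lymphoma 2564 alone (0.37, -0.0093 and 0.020). Among 19 components of the pathway the median difference was 0.076, with 3 of unadjusted p under 0.05. These were the nuclear partner Tcf7l2 (0.32), Gsk3b itself (0.12) and the scaffold Dvl3 (0.18). Among 20 Wnt targets it was 0.010, with 2 such members, Tcf7l2 and the progenitor factor Sox4. Sox4 stood at 6.69, 6.74 and 8.3 in BCR-positive and 7.49, 7.62 and 8.89 in BCR-negative cells (difference 0.76 ± 0.155, adjusted p = 0.385, limma). Myc, as the array's mouse probe set reads it, lay between 3.98 and 4.32 on the 6 arrays, near the 30th percentile of all genes at 4.12, and had a difference of 0.040 ± 0.0551. The labels do not say whether this probe set reads the transgene. Of 12 genes of the MYC and MAX network, the MYC antagonist Mxd4 alone had an unadjusted p under 0.05, at 7.62, 7.64 and 8.29 against 8.17, 8.49 and 9.18 (difference 0.76 ± 0.157, adjusted p = 0.385, limma), while Mxd1 and Mlx had 0.19 and -0.11.

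Lists of growth and metabolism had negative medians that varied by lymphoma. Of 41 nucleolar MYC targets, which serve ribosome assembly, 14 had an unadjusted p under 0.05 on the lower and 0 on the higher side, 2 were positive and 0 were called. Their median was -0.16, but 0.00015, -0.17 and -0.31 in lymphomas 2564, 2646 and 2676. The processing factor Rrp12 had log2 levels of 8.41, 7.87 and 7.9 in BCR-positive and 8.21, 7.56 and 7.29 in BCR-negative cells (difference -0.38 ± 0.0878, adjusted p = 0.424, limma), and the assembly factors Mrto4 and Wdr74 had differences of -0.062, -0.37 and -0.45 and -0.093, -0.30 and -0.45. Each was lowest against its partner in lymphoma 2676 and nearest to level in 2564. All 20 genes of cholesterol synthesis had a negative mean difference, with a median of -0.17 (-0.059, -0.23 and -0.23 by lymphoma), and 6 had an unadjusted p under 0.05. Among them were the mevalonate enzymes Mvd (-0.36), Mvk (-0.23) and Fdps (-0.28), the first at 7.47, 7.3 and 5.84 against 7.31, 6.86 and 5.36 in BCR-positive and BCR-negative cells. All 34 genes of oxidative phosphorylation were negative as well, with a median of -0.090 (-0.0038, -0.083 and -0.21 by lymphoma) and 5 of unadjusted p under 0.05. Cyc1 and Ndufb3, subunits of complexes III and I, had differences of -0.17 ± 0.0646 and -0.16 ± 0.0605, and Ndufv1 had -0.23. The first and second of these did not overlap between the groups, beside 6.32% of all genes.

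The amino acid response genes under the factor ATF4 had a median of -0.15 over 27 genes, with 4 of unadjusted p under 0.05 on the lower and 0 on the higher side. Asparagine synthetase, Asns, was at 10.99, 9.64 and 10.2 in BCR-positive and 11.002, 9.18 and 9.44 in BCR-negative cells, level in lymphoma 2564 and lower in the others, and the serine enzyme Psat1 and the tRNA synthetase Wars had differences of -0.26 and -0.19. Nucleotide synthesis genes had a median of -0.11 over 23 genes, with the pyrimidine enzymes Cad and Dhodh at -0.26 and -0.24 and the CTP synthase gene Ctps2 on the other side at 0.34, 0.28 and 0.32 in the 3 lymphomas. Glycolysis genes had a median of -0.091 over 18 genes. The enolase gene Eno3 had differences of -0.29, -0.13 and -1.18, and the phosphofructokinase genes Pfkm and Pfkl had -0.25 and -0.20. In these 3 lists, as in the nucleolar list, the median of lymphoma 2564 was between -0.010 and 0.043 and that of 2676 between -0.32 and -0.23.

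**Figure D3:**
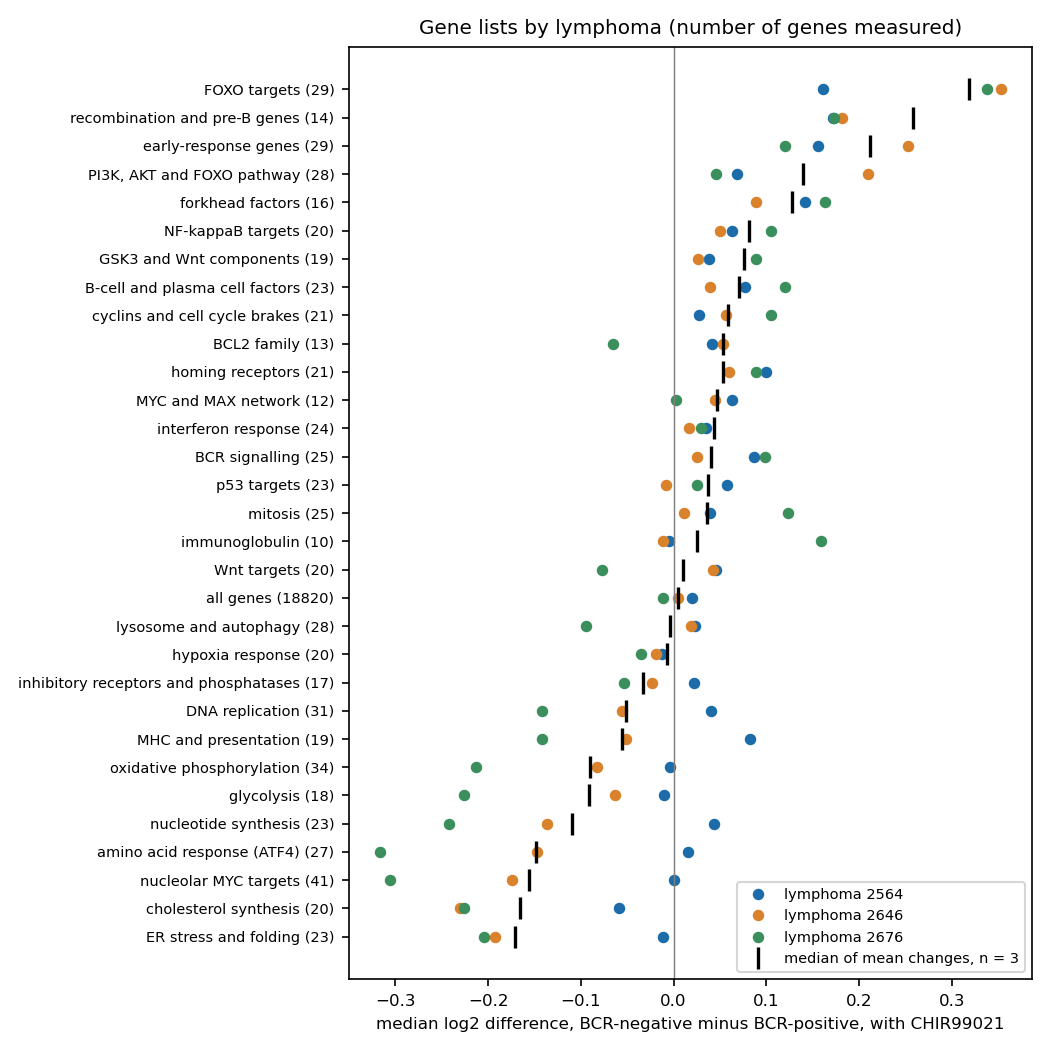
Median log2 difference between BCR-negative and BCR-positive cells with CHIR99021 (horizontal axis) for each gene list (vertical axis), with 1 point per lymphoma and a bar for the median of the mean differences. FOXO targets lie farthest to the right at 0.32, ER stress and folding genes farthest to the left at -0.17, and the lists of growth and metabolism spread from near 0 in lymphoma 2564 to lower values in 2676.

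Chaperones and folding enzymes of the endoplasmic reticulum were the list with the largest such share on the lower side. Of 23 genes, 10 had an unadjusted p under 0.05 on the lower and 1 on the higher side, 0 were called, and the median was -0.17 (-0.012, -0.19 and -0.20 by lymphoma). The chaperone-associated gene Sdf2l1 was at 10.51, 10.03 and 9.95 in BCR-positive and 10.45, 9.46 and 8.84 in BCR-negative cells (difference -0.58 ± 0.151, adjusted p = 0.457, limma), near level in lymphoma 2564 and lower in the others. Edem1, a factor that sends misfolded glycoproteins to degradation, stood at 10.09, 10.07 and 10.14 against 9.93, 9.88 and 9.83, with all BCR-negative arrays below all BCR-positive ones (difference -0.22 ± 0.0637). The disulfide isomerase gene Pdia6 had log2 levels of 9.65, 9.23 and 9.31 against 9.55, 8.92 and 8.7 (difference -0.34 ± 0.101). Hspa5, the chaperone BiP, had a difference of -0.24 ± 0.0753, Creld2 of -0.26 ± 0.0881 and the lectin chaperone Calr of -0.17 ± 0.0683, and these are named here after their values were seen, for the sequences that follow. Crebrf, a regulator of the stress response, was the member on the higher side, at 0.53.

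Many folding genes carry the ER stress element, the binding site of ATF6 with NF-Y, in their promoters. The letters CCAAT and CCACG with 9 bases of any kind between them, searched on both strands, were found in the RefSeq windows of 8 of 20 list members that have such a window (40%), beside 37 of 27025 genes (0.137%). Stretches of the 250 bases before the start of transcription are given for 4 of the 8, with the element in capitals. Those of Hspa5 (chr2:34771840-34772089), Pdia6 (chr12:17266339-17266588) and Creld2 (chr15:88819396-88819645) are on the plus strand of GRCm38.p6 and that of Calr (chr8:84846932-84847181) is on the minus strand, and in Creld2 and Calr the element reads in the reverse orientation.
Hspa5: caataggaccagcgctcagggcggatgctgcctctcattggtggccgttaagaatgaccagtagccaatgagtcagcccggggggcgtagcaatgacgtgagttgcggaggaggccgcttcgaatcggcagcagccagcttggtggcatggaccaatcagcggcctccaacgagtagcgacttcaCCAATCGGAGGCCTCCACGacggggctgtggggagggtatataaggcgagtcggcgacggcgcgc
Pdia6: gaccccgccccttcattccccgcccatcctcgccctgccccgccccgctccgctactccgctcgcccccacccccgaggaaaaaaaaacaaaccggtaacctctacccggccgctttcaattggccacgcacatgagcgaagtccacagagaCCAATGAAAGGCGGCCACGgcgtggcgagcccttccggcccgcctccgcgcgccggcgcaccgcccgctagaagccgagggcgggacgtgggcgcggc
Creld2: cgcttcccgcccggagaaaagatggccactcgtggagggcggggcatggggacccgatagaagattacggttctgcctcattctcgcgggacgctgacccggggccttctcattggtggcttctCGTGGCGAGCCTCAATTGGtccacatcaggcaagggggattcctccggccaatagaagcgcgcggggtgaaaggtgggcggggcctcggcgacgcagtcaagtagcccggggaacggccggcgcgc
Calr: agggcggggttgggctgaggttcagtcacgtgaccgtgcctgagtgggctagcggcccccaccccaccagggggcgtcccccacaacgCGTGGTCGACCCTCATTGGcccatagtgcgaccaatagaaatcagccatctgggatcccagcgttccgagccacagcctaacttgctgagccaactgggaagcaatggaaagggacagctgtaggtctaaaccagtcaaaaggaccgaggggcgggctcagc
The other 4 genes with a match were Canx, Dnajc3, Hsp90b1 and Syvn1, at differences of -0.022, -0.11, -0.11 and -0.16, and none of these had an unadjusted p under 0.05.

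Cell cycle genes had small median differences with CHIR99021 over the 3 lymphomas together. Of 31 DNA replication genes, 22 were negative, as were 47.7% of all genes, and 2 had an unadjusted p under 0.05 on the lower side. Their median was -0.051, but 0.041, -0.055 and -0.14 in lymphomas 2564, 2646 and 2676. Without CHIR99021 it was -0.33, and 12 were called lower, beside 2.30% of all genes. For the difference between the cultures, 18 of the 31 had an unadjusted p under 0.05 toward the higher side, beside 5.26% of all genes in either direction, and 0 were called. Ccne1, cyclin E1, was at 8.9, 9.36 and 9.29 in BCR-positive and 8.8, 8.83 and 8.82 in BCR-negative cells with CHIR99021, without overlap (difference -0.37 ± 0.136), and had a difference of -0.81 ± 0.136 without it. The origin and helicase genes Orc2 and Mcm2 had differences of -0.21 and -0.14 with and -0.47 and -0.33 without CHIR99021. Mitosis genes had a median of 0.036 over 25 genes, 19 of them positive, and the kinetochore gene Cenpf and the cyclin gene Ccnb2 had an unadjusted p under 0.05, at differences of 0.091, 0.29 and 0.45 and 0.025, 0.19 and 0.38. The kinetochore motor gene Cenpe had 0.18. Among 21 cyclins and cell cycle brakes, 4 had an unadjusted p under 0.05 on the higher side, with Cdkn1b and Btg2 as above and the pocket protein gene Rbl1 at 0.25. The p53 target Trp53inp1, a stress-induced autophagy protein gene, was at 9.11, 8.85 and 8.32 in BCR-positive and 9.42, 9.73 and 9.25 in BCR-negative cells, without overlap (difference 0.71 ± 0.145, adjusted p = 0.385, limma). The list of 23 p53 targets as a whole had a median of 0.038, with Rrm2b at 0.23.

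Death genes of the BCL2 family had a median of 0.054 over 13 members, with 1 of unadjusted p under 0.05 on each side. Bmf, a BH3-only protein that promotes death, was at 6.79, 6.14 and 6.32 in BCR-positive and 7.04, 6.91 and 6.79 in BCR-negative cells, without overlap (difference 0.49 ± 0.215), and had a difference of 1.41 ± 0.215 (adjusted p = 0.017) without CHIR99021. The effector gene Bak1 and the survival gene Mcl1 had differences of -0.23 and 0.13. Antigen presentation had a median of -0.056 over 19 genes, with the class I regulator Nlrc5 at 0.28, 0.31 and 0.44, the peptide transporter gene Tap2 at -0.047, -0.11 and -0.26 and the immunoproteasome gene Psmb8 at -0.22. Interferon response genes had 0.043 over 24, with Ifi35, Gbp3 and Ifit1 at -0.26, 0.22 and 0.24. Lysosome and autophagy genes had -0.0040 over 28. The lysosomal channel gene Mcoln1 stood at 9.06, 8.92 and 8.94 against 9.17, 9.1 and 9.35 without overlap, and the cathepsin genes Ctsh and Ctsz had -0.50 and -0.21. Of 20 hypoxia response genes, 0 had an unadjusted p under 0.05 (limma), with Narf, Higd1a and the glucose transporter gene Slc2a1 at 0.34, -0.14 and -0.18. In all of these lists 0 members were called.

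Without CHIR99021, 791 genes (4.20%) were called between the populations, 359 higher (1.91%) and 432 lower (2.30%), against 3 with it. Both counts compare separate arrays of the same lymphomas, but come from 1 model whose spread was estimated over all 12 arrays. Leaving out the BCR-negative array of lymphoma 2646 with CHIR99021 thus changed the count without CHIR99021 to 327. The count without CHIR99021 was 0 when lymphoma 2646 was left out, 22 when 2676 was left out and 5 in a model with no replicate block, and 0 in a model of its own 6 arrays. Its split moved to 350 higher and 738 lower when array medians were subtracted and to 448 higher and 216 lower with cyclic loess. Over all genes, 150 had a mean difference of more than 0.5 in size with CHIR99021 and 522 without it, and 10 and 64 one of more than 1. By lymphoma these counts of more than 0.5 were 140 and 617 in 2564 and 276 and 1410 in 2646, but 842 and 772 in 2676, where the difference with CHIR99021 was as wide as without it. Of the 359 genes called higher without CHIR99021, 345 had a positive difference with it, 285 in all 3 lymphomas beside 17.8% of all genes, and 216 with an unadjusted p under 0.05. Their median was 0.54 without and 0.27 with CHIR99021. Of the 432 called lower, 401 were negative with CHIR99021, 213 of them in all 3 lymphomas beside 13.9% of all genes and 150 with an unadjusted p under 0.05, and the median went from -0.39 to -0.13. The sizes without CHIR99021 carry the selection of these genes by that same contrast, so that a smaller value in the other culture is built in to an unknown degree. The test of the difference between cultures called 0 of 18820 genes (0%, limma), with 990 (5.26%) at an unadjusted p under 0.05.

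Single genes of that set had unlike differences with CHIR99021. Cacna1e, a voltage-gated calcium channel, was at 4.87, 4.56 and 4.99 in BCR-positive and 5.39, 5.63 and 5.84 in BCR-negative cells with CHIR99021, without overlap, and its difference was 0.81 ± 0.18 with and 2.15 ± 0.18 without it. Maml2, a Notch coactivator, had 0.82 ± 0.181 and 1.58 ± 0.181, and Pinlyp had 0.61 and 1.92. For Cd69, an early activation marker, the log2 levels with CHIR99021 were 4.41, 6.15 and 6.3 against 5.41, 5.65 and 6.18, with differences of 1.0, -0.50 and -0.11 that do not share a sign, beside 1.8 ± 0.398 (adjusted p = 0.0397) without it. Cd36, a fatty acid receptor, had -0.093 ± 0.263 with and -1.2 ± 0.263 without CHIR99021. The microtubule protein gene Eml1, by contrast, had -0.96 ± 0.218 with and -1.35 ± 0.218 without, and the endosomal gene Ehd4 -0.46 and -0.80. Further genes of the lower side were Camkv (-0.73 with and -0.91 without CHIR99021), Pard6g (-0.50 and -0.82), Anxa9 (-0.50 and -0.82) and Zdhhc2 (-0.36 and -0.80).

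The smallest p for the difference between cultures belonged to Lima1, an actin-binding protein gene, with 0.37 ± 0.097 with and 1.46 ± 0.097 without CHIR99021 (difference between cultures -1.1 ± 0.137, adjusted p = 0.276, limma). Nfkbie followed with 0.57 ± 0.106 and 1.5 ± 0.106, and Kyat1, a kynurenine aminotransferase gene, had -0.022 and 0.45. Toward the other side stood the chromatin remodeller gene Smarca5 (0.084 with and -0.31 without CHIR99021), the pyruvate dehydrogenase component Pdhx (0.0049 and -0.39), the clamp loader gene Rfc1 (0.050 and -0.32), the mitochondrial ribosome gene Mrpl32 (-0.075 and -0.48) and Sgk3 (-0.24 and -0.80). Their adjusted p lay between 0.276 and 0.928. Mturn, called in both cultures, had 0.84 ± 0.0974 with and 1.48 ± 0.0974 without CHIR99021, and Foxc1 had 0.42 ± 0.0489 and 0.14 ± 0.0489 (adjusted p of the difference between cultures 0.928 and 0.928, limma).

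**Figure D4:**
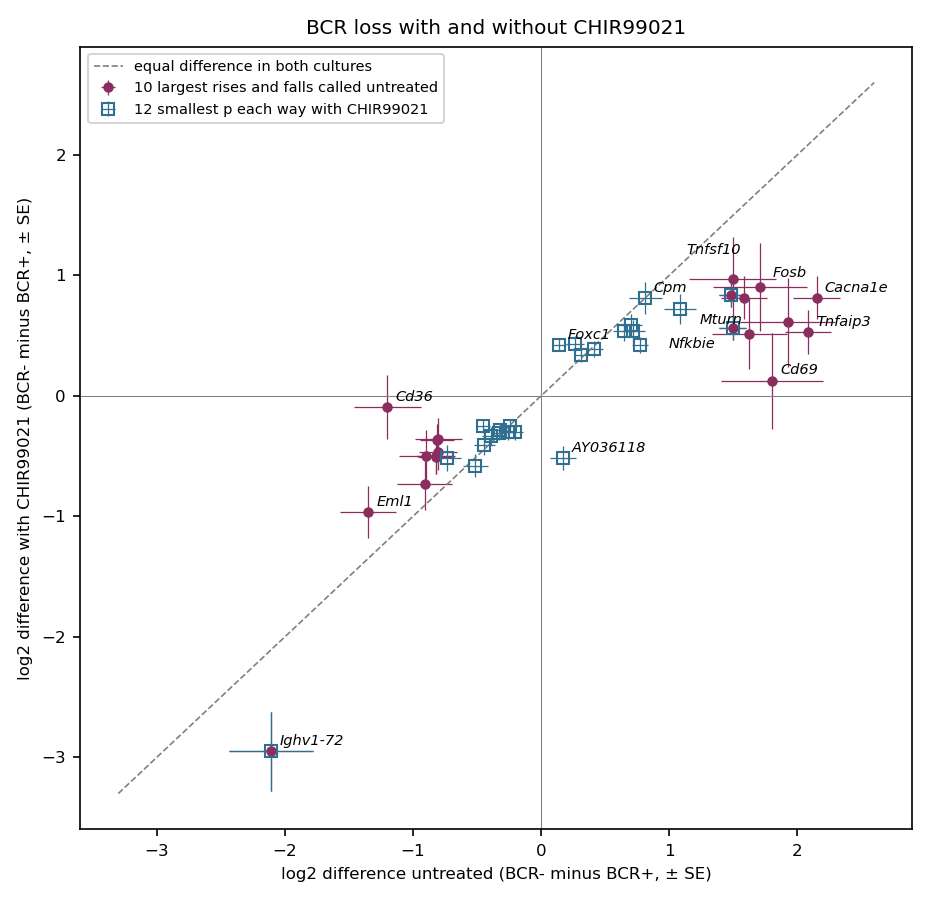
Log2 difference between BCR-negative and BCR-positive cells with CHIR99021 (vertical axis) against the difference without it (horizontal axis), with 1 point per named gene and bars for the standard error. Filled circles are the genes with the largest differences called without CHIR99021, open squares those with the smallest p with it, and the dashed line marks equal differences. Most filled circles lie nearer to 0 on the vertical axis, such as Tnfaip3 at 0.53 and 2.09, and AY036118 lies on opposite sides, at -0.51 and 0.17.

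Part of the difference between the populations was unlike between the lymphomas and was met again in the untreated culture of the same tumour. The genes in this paragraph were taken from the largest differences of each lymphoma after their values were seen, and have no test. Dntt, terminal transferase, stood at 3.22, 3.96 and 3.33 in BCR-positive and 3.39, 8.23 and 3.46 in BCR-negative cells with CHIR99021, so that lymphoma 2646 alone was high, and its differences without CHIR99021 were 0.14, 4.85 and 0.52. Among MHC class II genes, Cd74, the invariant chain, had differences of 0.53, -1.81 and -1.53 in lymphomas 2564, 2646 and 2676 with CHIR99021 and of 1.55, -1.88 and -1.36 without, and H2-Aa had 1.11, -1.09 and -1.63 with and 2.43, -1.13 and -1.47 without. H2-Eb1 had 0.042, -0.71 and -2.02 with and 1.23, -0.72 and -1.90 without CHIR99021. H2-DMa had -0.17, -0.24 and -1.9 with and 0.79, -0.41 and -1.58 without. These class II genes were thus negative in 2646 and 2676 in both cultures. In 2564 they were positive without CHIR99021 and did not share a sign with it. H2-Ea had another pattern, with 0.061, 0.041 and -1.85 with and -0.99, -0.12 and -1.67 without. Plek, encoding pleckstrin, was at 0.066, -1.94 and -1.92 with and -0.078, -2.17 and -1.8 without CHIR99021, which leaves lymphoma 2564 level. In lymphoma 2676 the adhesion receptor gene Adgrg1 had a difference of 0.032, 0.094 and 2.19 in the order of the 3 lymphomas, Pstpip2 of -0.17, -1.04 and -2.33 and the ectoenzyme gene Bst1 of 0.36, 0.93 and 2.2. In lymphoma 2564 the prolyl hydroxylase gene Egln3 had 1.35, -0.21 and -0.044 and the regulator of G-protein signalling Rgs1 1.23, 0.10 and 0.078. Atp1b1, a sodium pump subunit gene, was high in the BCR-negative cells of all 3, by 1.52, 2.12 and 0.48.

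Of the 50 largest differences of each lymphoma with CHIR99021, those with the same sign and more than 0.5 in size without CHIR99021 in the same lymphoma numbered 36 in 2564, 46 in 2646 and 48 in 2676. In the untreated cultures of the other lymphomas the counts for the same genes lay between 15 and 33. Over all genes, the share with a difference of more than 0.5 in either direction in those untreated cultures was 3.28% in 2564, 7.49% in 2646 and 4.10% in 2676. The arrays with and without CHIR99021 are separate, but share the tumour and may share the day of culture, which the labels do not give.

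**Figure D5:**
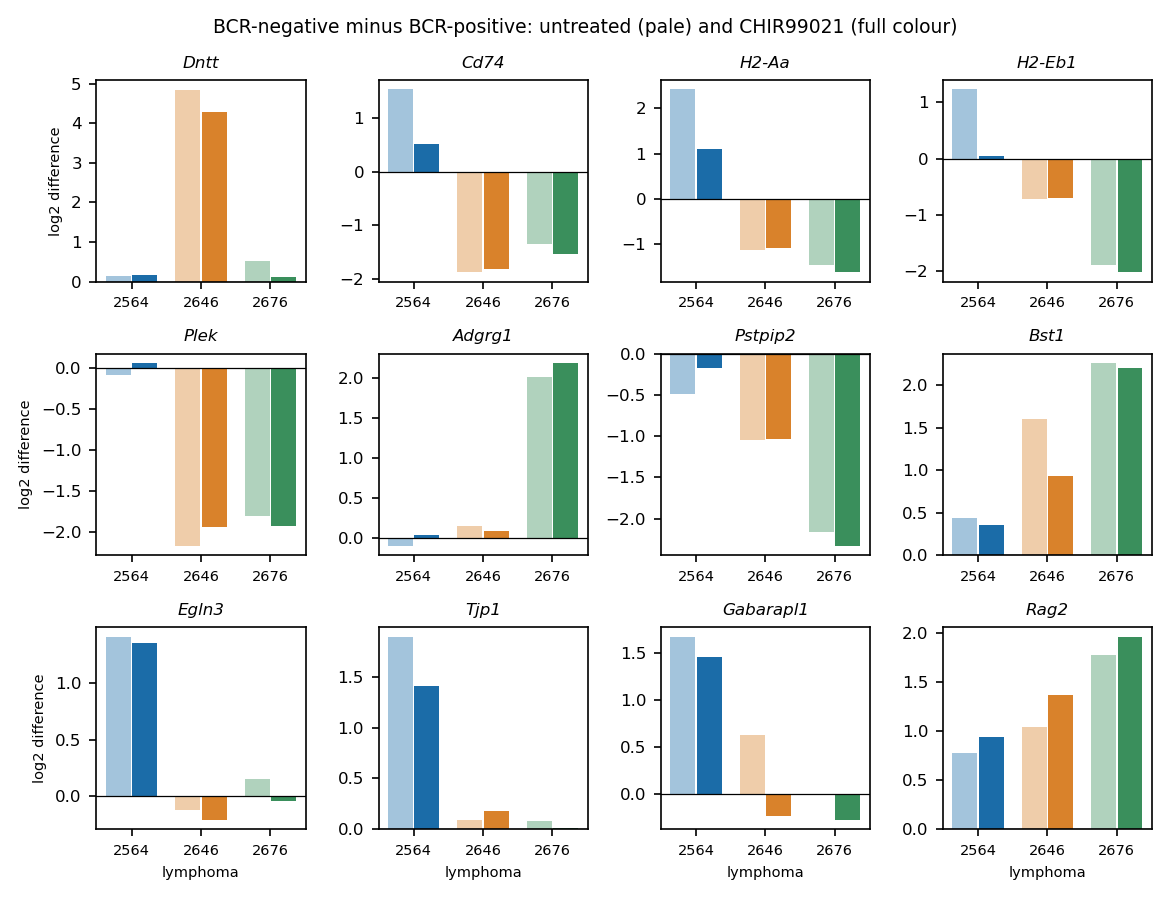
Log2 difference between BCR-negative and BCR-positive cells (vertical axes) by lymphoma (horizontal axes), with 1 bar per lymphoma without CHIR99021 (pale) and 1 with it (full colour). The genes are Rag2 and genes with large differences that were unlike between the lymphomas. Dntt is high in lymphoma 2646 alone in both cultures, and Cd74 is positive in 2564 and negative in 2646 and 2676 in both.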

How the data were processed

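RNA of 12 sorted populations was measured on whole-transcript Affymetrix arrays of the type Mouse Gene 1.1 ST. The deposited values are log2 levels per probe set, and RMA and Affymetrix Power Tools are named, per the submitters' processing notes. Versions and build: not given in the sources used here. RMA scales all arrays to 1 distribution, which hides a change common to all genes.

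Probe sets with exactly 1 gene symbol in the platform annotation were kept (21218 of 35556; 1881 had several and 12457 were not listed), and a gene with several was read from the one with the highest mean, which gave 18820 genes. Symbols were checked through Entrez identifiers against RefSeq (GRCm38.p6). A linear model with the group and the lymphoma over all 12 arrays was fitted in limma 3.58.1 (R 4.3.3) with empirical Bayes moderation and Benjamini-Hochberg adjustment over all genes, called under an adjusted p of 0.05. It was tested on simulated data. The lymphoma numbers in the labels pair the arrays, since each names 1 tumour, and same-lymphoma arrays deviated together (r from 0.813 to 0.907 over 18 pairs). Unadjusted counts are descriptions.

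The comparison and the gene lists were chosen with earlier results of these data known. The lists held 680 measured genes, and listed genes without a probe set of 1 symbol were not used here. Named were the called genes, the 12 smallest p in each direction among genes of 1 sign in all lymphomas, the 3 smallest p in each list, a set of BCR, GSK3 and FOXO genes, the 10 largest differences in each direction called without CHIR99021, and the 5 smallest p in each direction for the difference between cultures. Alternatives were the lymphoma left out of the model or as a random block, only the 6 arrays compared, a filter below the 30th percentile of level, the mean of probe sets, array medians subtracted, cyclic loess, a moderation with trend, and leaving out arrays or lymphomas. Depth has no counterpart on arrays.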

Additional observations from a re-analysis of the deposited data

Results flagged for a closer look

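A few results had the opposite sign with CHIR99021 and without it, in all 3 lymphomas for the genes AY036118, Tap2, Smarca5 and Rfc1 or in the lymphoma medians for the lists. None of these differences between the cultures passed the test over all genes (limma), and those of the list medians were not tested. AY036118 had a difference of -0.51 with CHIR99021 and 0.17 without it, the peptide transporter gene Tap2 one of -0.14 and 0.13, the chromatin remodeller gene Smarca5 one of 0.084 and -0.31, and the clamp loader gene Rfc1 one of 0.050 and -0.32. The median of the mitosis genes was 0.036 with CHIR99021 and -0.15 without it. That of the hypoxia response genes was -0.0070 with CHIR99021 and -0.00020 without it, a difference with no measurable size.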

How the results depend on the processing

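The 3 calls lay at the threshold and their number depended on the model, while their differences kept their sign. With CHIR99021, 0 genes were called with no replicate block, with the lymphoma as a random block, with dim genes left out, with array medians subtracted, with cyclic loess and with trend and robust moderation (limma; 415, 1067, 1304, 1917, 1613 and 1566 genes at an unadjusted p under 0.05), and 3 with probe sets of a gene averaged and with only the 6 arrays compared. Leaving out arrays or lymphomas gave 0 to 4 genes. Over all settings the difference ran from -3.20 to -2.60 for Ighv1-72, from 0.76 to 0.89 for Mturn and from 0.39 to 0.45 for Foxc1, with an adjusted p from 0.0182 to 1, from 0.0445 to 1 and from 0.0488 to 1. The count without CHIR99021 was 5 with no replicate block, 75 with a random block, 0 with only the 6 arrays compared, and 0 to 1005 when arrays or lymphomas were left out. The difference between the cultures had 0 calls in every setting that gives it, which only the 6 arrays compared cannot. The cause of these shifts was not tested. Other list medians that moved were, with dim genes left out 0.10 for BCR signalling; with array medians subtracted 0.048 for NF-kappaB targets, 0.014 for MYC and MAX network, -0.040 for hypoxia response, 0.0045 for p53 targets, 0.020 for homing receptors, 0.23 for recombination and pre-B genes, 0.010 for interferon response, -0.028 for all genes; with cyclic loess 0.0061 for hypoxia response, 0.026 for interferon response. Leaving out 1 array or 1 lymphoma moved these list medians by more than their spread over the lymphomas, with the lowest and highest values -0.017 and 0.13 for immunoglobulin, 0.013 and 0.092 for BCR signalling, -0.063 and 0.018 for inhibitory receptors and phosphatases, 0.071 and 0.15 for forkhead factors, 0.047 and 0.12 for NF-kappaB targets, 0.13 and 0.31 for early-response genes, 0.0075 and 0.076 for MYC and MAX network, -0.032 and 0.032 for hypoxia response, 0.012 and 0.095 for mitosis, -0.0098 and 0.053 for p53 targets, 0.032 and 0.12 for homing receptors, -0.012 and 0.12 for B-cell and plasma cell factors, 0.12 and 0.43 for recombination and pre-B genes, -0.00021 and 0.052 for interferon response. Under the same settings single genes without a call turned their sign, with values from -1.5 to 0.077 for Ighm, -0.39 to 0.28 for Igkc, -0.057 to 0.025 for Cd79b, -0.12 to 0.15 for Axin2, -0.0078 to 0.090 for Myc, -0.31 to 0.50 for Cd69, -0.34 to 0.084 for Cd36, -0.027 to 0.045 for Pdhx, -0.099 to 0.060 for Kyat1. Turned as well, Igkc was at -0.032 with array medians subtracted, Cd79b was at 0.013 with cyclic loess, Pdhx was at -0.028 with array medians subtracted. The number of lymphomas and levels near the array's floor limit what could be resolved.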

Other observations

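The differences between BCR-negative and BCR-positive cells with CHIR99021 correlated across the 18820 genes with r = 0.15 between lymphomas 2564 and 2646, 0.15 between 2564 and 2676 and 0.45 between 2646 and 2676. Genes are not independent replicates, and these values are a description without a test. When all 35556 probe sets were fitted, including those without a gene symbol, 0 were called (limma), the smallest adjusted p was 0.228, and 2587 had an unadjusted p under 0.05.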
